A study of Rattus norvegicus with 24 samples.

Results

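The 9 genes described here write, erase or read methylated cytosine in DNA. They were found by their symbols in a table of 32883 genes, and each symbol stood in 1 row: Dnmt1 (ENSRNOG00000039859), Dnmt3a (ENSRNOG00000026649), Dnmt3b (ENSRNOG00000010625), Tet1 (ENSRNOG00000000277), Tet2 (ENSRNOG00000023579), Tet3 (ENSRNOG00000011387), Uhrf1 (ENSRNOG00000048411), Mbd1 (ENSRNOG00000024104) and Mbd2 (ENSRNOG00000011853). The tissue was the urethra of 12-week-old female Sprague–Dawley rats, and every rat, those given saline included, had undergone simulated vaginal delivery (SVD), a pudendal nerve crush followed by vaginal distension. One hour later the rats received saline, allogeneic mesoangioblasts (MABsallo) or VEGF-overexpressing allogeneic mesoangioblasts (MABsallo-VEGF) into the aorta, and urethras were collected 3d or 7d after SVD, with 4 samples in each of the 6 groups. Mesoangioblasts are vessel-associated progenitor cells. The MABsallo carried a lentiviral CMV-driven eGFP and firefly luciferase, and the MABsallo-VEGF a lentiviral SFFV-driven VEGF165 with a truncated CD34. The paper also tracked MABsallo-VEGF by bioluminescence, and whether these cells carried both vectors is not stated outright. The labels give the genotype as WT for saline and MABsallo and as VEGF OE for MABsallo-VEGF, and they name MABsallo-VEGF replicates 6 and 7 at 7d as recovered. Reads of injected cells and reads of the host cannot be told apart in these libraries.

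DNMT1 copies methylation onto the new strand after replication, and UHRF1 brings it to hemimethylated CpG sites. DNMT3A and DNMT3B place methylation on unmethylated sites. TET1, TET2 and TET3 oxidise 5-methylcytosine with 2-oxoglutarate as a cosubstrate, which is the first step of active demethylation. MBD1 and MBD2 bind methylated CpG, and MBD2 does so as a part of the NuRD deacetylase complex.

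Promoter windows were read from RefSeq (rat build GRCr8), each from 250 bases before to 50 bases after an annotated gene start, and 8 of the 9 genes had one, in 15 windows. The reads were aligned to another build, and only the sequences were used. Both strands were searched for 4 E2F words (TTTCGCGC, TTTCCCGC, TTTGGCGC and TTTGCCGC), the NRF1 palindrome, the Sp1 word GGGCGG and the word CCAAT. E2F factors are known regulators of replication genes, and NRF1 of genes for mitochondrial proteins. No word contains another, and of all 33365 distinct RefSeq windows 2.15% held an E2F word, 0.854% the NRF1 palindrome, 33.1% GGGCGG and 37.5% CCAAT. Among the 9 genes, E2F words were found in the windows of Dnmt1 and Uhrf1, the maintenance pair, and the NRF1 palindrome in that of Dnmt1. These windows are shown for that reason, with the NRF1 palindrome and the E2F words in capitals, and those of Dnmt3a and Tet2, which held neither, are shown in lower case for comparison. The Dnmt1 window is chr8:27762792-27763091 on the minus strand, the Uhrf1 window chr9:1222936-1223235 on the plus strand, the Dnmt3a window chr6:32598352-32598651 on the plus strand and the Tet2 window chr2:224746137-224746436 on the minus strand.
Dnmt1: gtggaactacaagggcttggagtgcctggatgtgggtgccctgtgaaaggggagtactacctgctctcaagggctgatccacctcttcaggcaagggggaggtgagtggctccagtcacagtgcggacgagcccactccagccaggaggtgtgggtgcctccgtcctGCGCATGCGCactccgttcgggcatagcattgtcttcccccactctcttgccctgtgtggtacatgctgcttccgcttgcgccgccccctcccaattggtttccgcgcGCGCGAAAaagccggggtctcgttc
Uhrf1: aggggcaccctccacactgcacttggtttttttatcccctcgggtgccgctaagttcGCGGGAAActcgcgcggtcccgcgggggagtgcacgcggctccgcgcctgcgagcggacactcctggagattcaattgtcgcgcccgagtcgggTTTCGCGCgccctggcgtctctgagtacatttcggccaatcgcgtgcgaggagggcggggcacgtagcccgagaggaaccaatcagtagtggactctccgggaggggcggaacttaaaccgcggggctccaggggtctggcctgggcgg
Dnmt3a: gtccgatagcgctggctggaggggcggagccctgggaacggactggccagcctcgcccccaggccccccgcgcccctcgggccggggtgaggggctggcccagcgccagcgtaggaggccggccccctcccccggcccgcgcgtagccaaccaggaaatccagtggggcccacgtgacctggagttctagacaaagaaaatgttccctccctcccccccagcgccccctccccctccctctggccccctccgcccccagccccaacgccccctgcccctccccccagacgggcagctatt
Tet2: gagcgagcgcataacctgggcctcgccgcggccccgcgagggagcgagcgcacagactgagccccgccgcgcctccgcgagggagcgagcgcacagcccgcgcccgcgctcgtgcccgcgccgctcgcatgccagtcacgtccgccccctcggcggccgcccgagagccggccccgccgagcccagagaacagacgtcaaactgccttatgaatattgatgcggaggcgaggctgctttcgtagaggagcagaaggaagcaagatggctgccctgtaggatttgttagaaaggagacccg

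The Dnmt1 window held TTTCGCGC on the reverse strand, beginning 25 bases after the gene start, and the NRF1 palindrome 83 bases before it. The Uhrf1 window held TTTCGCGC on the forward strand and TTTCCCGC on the reverse strand, and 2 other Uhrf1 windows held no E2F word. The CpG count was 17 in the Dnmt1 window, 35 in this Uhrf1 window, 21 in the Dnmt3a window and 39 in that of Tet2, against a median of 7 over all windows. GGGCGG occurred 2 times each in the windows of Dnmt3a and Tet2. A match describes the letters of a window and does not show that a factor binds there.

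Libraries held 2170695 to 10166052 reads in genes. The 3d libraries of treated rats were shallower (2170695 to 4491900 for MABsallo, 3042531 to 4261098 for MABsallo-VEGF) than those of saline (4851797 to 5249467) and those of 7d (5244129 to 10166052). One read was worth 1.67 to 9.23 normalized gene counts, so values below about 10 rest on a few reads. Saline replicate 6 and MABsallo-VEGF replicate 4, both at 3d, stood apart from their groups. On the first component of a PCA, which held 70.7% of the variance of the 500 most variable genes, saline replicate 6 scored 54.6 while the other saline samples of 3d scored -52.3 to -6.43, and MABsallo-VEGF replicate 4 scored 0.70 while the others of its group scored 57.3 to 75.2. Comparisons that these libraries enter were therefore fitted with all 24 samples and again with 22, without them, and the plots of log2 fold changes show both values. Saline replicate 8 of 3d, which scored -52.3, was kept in both fits, and results without it are given separately. The share of reads in 37 mitochondrially encoded genes was 12.7 to 20.04% in saline, 23.8 to 35.4% in MABsallo and 15.7 to 39.1% in MABsallo-VEGF at 3d, with the 15.7% in the MABsallo-VEGF library that stood apart, and 11.8 to 16.2% at 7d. Smooth muscle, striated muscle and urothelial markers, which define the urethra, were all read in at least one sample, except 1 of 11 urothelial and squamous genes in 4 of the 6 groups. At 3d the summed urothelial and squamous count was 2850 in saline replicate 8 and 2209 in MABsallo-VEGF replicate 2. The other samples of 3d had 17454 to 47187. The smooth muscle sum was 27241 in saline replicate 8, where the other saline samples of 3d had 122465 to 241241. The part of this in the differences of the 9 genes was not tested.

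**Figure D1:**
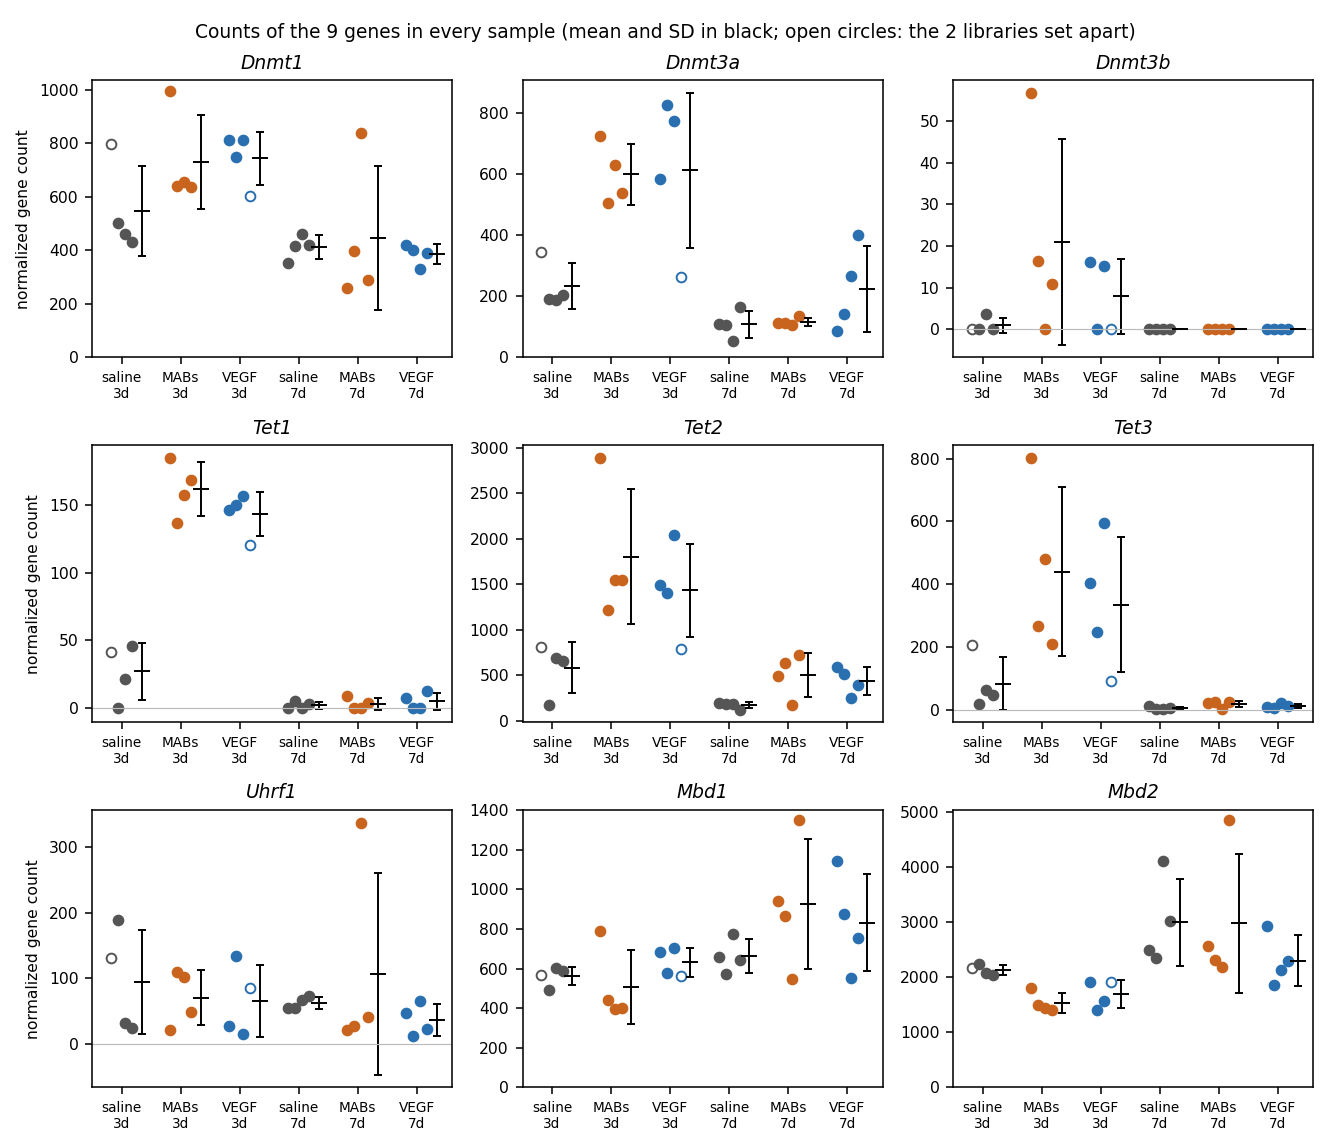
Normalized gene counts (vertical axis, linear) of the 9 genes in each of the 24 samples. Points are samples, MABs and VEGF on the horizontal axis stand for MABsallo and MABsallo-VEGF, open circles mark saline replicate 6 and MABsallo-VEGF replicate 4 at 3d, and black bars give the mean and SD of the 4 samples. Tet1 lay at 120 to 185 in the treated samples of 3d, at 0 to 45.7 in saline at 3d and at 0 to 12.6 at 7d.

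At 3d the de novo methyltransferase Dnmt3a and the 3 TET enzymes were higher after MABsallo than after saline, with ratios of the group means of 2.57 for Dnmt3a, 3.09 for Tet2, 5.19 for Tet3 and 5.96 for Tet1. Without saline replicate 6 the ratios were 3.06, 3.56, 9.92 and 7.22 in this order, and Tet3 had the largest. The maintenance genes Dnmt1 and Uhrf1 and the readers Mbd1 and Mbd2 did not pass the thresholds. A gene passed with an adjusted p (limma on log2(normalized gene count + 1), Benjamini-Hochberg) below 0.05 and a log2 fold change beyond 1, and 4 of the 9 genes did, against 12.3% of the 16287 genes tested. DESeq2 and edgeR called the same 4, against 11.8% and 8.24% of all genes. All 9 genes met the minimum mean of 2, Dnmt3b only through its reads at 3d. The median log2 fold change of the 9 genes was 1.39, and that of all genes tested was 0.07. The former includes Dnmt3b and would be lower without it. In bulk tissue, a change in the number of cells of a type and a change in RNA per cell cannot be told apart.

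Dnmt3a counted 344, 192, 189 and 204 in the saline samples (replicates 6, 8, 9 and 10) and 724, 503, 628 and 537 in the MABsallo samples (replicates 1 to 4). Each MABsallo sample was above each saline sample, and the saline library that stood apart was the highest of its group. The log2 fold change was 1.39 ± 0.41 (SE, n = 4 and 4, adjusted p = 0.0281), and 1.60 ± 0.40 without the 2 libraries (adjusted p = 0.00687). Dnmt3a was among the genes that the study drew from these same samples, so its rise here is not independent evidence.

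Tet2 counted 813, 172, 690 and 655 in saline and 2890, 1220, 1542 and 1551 in MABsallo. The groups did not overlap, and the lowest saline sample, replicate 8, was well under the other samples of its group. The log2 fold change was 1.76 ± 0.45 (adjusted p = 0.0156), and 1.99 ± 0.47 without the 2 libraries (adjusted p = 0.00453). Tet2, too, was among the genes drawn by the study from these samples.

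Tet3 counted 207, 19.6, 64.3 and 49.3 in saline and 802, 268, 480 and 212 in MABsallo. The highest saline value, from the library that stood apart, lay just under the lowest MABsallo value. Its log2 fold change was 2.66 ± 0.71 (adjusted p = 0.0185), and 3.24 ± 0.67 without the 2 libraries (adjusted p = 0.00172).

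Tet1 was read 12, 0, 6 and 13 times in saline, for normalized counts of 41.3, 0, 21.4 and 45.7. In MABsallo it was read 26, 25, 17 and 31 times, for counts of 185, 137, 157 and 168. All 4 MABsallo samples were above all saline samples, although on few reads. The log2 fold change was 3.48 ± 1.10 (adjusted p = 0.0363), and 3.99 ± 1.20 without the 2 libraries (adjusted p = 0.0204).

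Dnmt3b was close to the limit of detection, with 1 read over the 4 saline samples and 8, 3, 0 and 2 reads in the MABsallo samples. The ratio of summed reads per depth was 23.4, with an exact 95% interval of 3.52 to 995 that covers counting error only. The fitted log2 fold change was 2.84 ± 1.03 (adjusted p = 0.0637), which did not pass.

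Neither of the maintenance genes passed. Dnmt1 counted 795, 502, 461 and 429 in saline and 994, 640, 655 and 635 in MABsallo, with a log2 fold change of 0.44 ± 0.28 (adjusted p = 0.294). Without the 2 libraries each treated sample of 3d lay above each saline sample, and the difference of 0.63 ± 0.29 still did not pass (adjusted p = 0.121). Uhrf1 ranged from 24.6 to 188 in saline and from 21.3 to 109 in MABsallo, so the groups overlapped over most of their range, and its fitted difference of -0.19 ± 0.85 (adjusted p = 0.903) turned to 0.13 without the 2 libraries.

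Of the readers, Mbd2 counted 2173, 2234, 2069 and 2030 in saline and 1796, 1488, 1440 and 1405 in MABsallo. Each MABsallo sample was below each saline sample, with a small log2 fold change of -0.48 ± 0.22 that did not pass (adjusted p = 0.139). Mbd1 ranged from 494 to 600 in saline and from 397 to 788 in MABsallo, and its difference was -0.21 ± 0.26 (adjusted p = 0.614).

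The 4 calls depended on single samples and on the groups fitted. With only the groups compared in the fit, none of the 9 genes passed, and 5 genes of the table did in place of 1997. Without MABsallo replicate 1, the sample with the highest Dnmt3a, Tet1, Tet2 and Tet3 counts of its group, none of the 9 genes passed (adjusted p = 0.0812 for Dnmt3a, 0.0841 for Tet1, 0.0614 for Tet2 and 0.0701 for Tet3). The whole table lost calls as well, with 732 of 16241 genes passing. None passed without saline replicate 8 (0.0931, 0.182, 0.0820 and 0.0912 in the same order), and the log2 fold change of Tet1 was then 2.19. In that fit 369 of 16295 genes of the table passed. Tet1 did not pass without MABsallo replicates 2 (adjusted p = 0.0547), 3 (0.0743) or 4 (0.0518) or without saline replicate 9 (0.0587). Dnmt3a did not pass without MABsallo replicate 3 (0.0682), saline replicate 9 (0.0697) or saline replicate 10 (0.0568). Tet3 did not pass without MABsallo replicate 3 (0.0523), while Dnmt3b did (0.0287). Dnmt3b had no read in that sample and was tested only because of its reads at 3d, so this pass is a description only. In each of these fits the log2 fold changes of Dnmt3a, Tet1, Tet2 and Tet3 stayed above 1.

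Scaling each library to the same total moved the median of all genes by -0.26 on the log2 scale, and the genes that passed were then 1102 higher and 1021 lower in place of 1531 and 466. Tet1, Tet2 and Tet3 still passed at log2 fold changes of 3.21, 1.49 and 2.38, and Dnmt3a did not (1.12, adjusted p = 0.0542).

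MABsallo-VEGF vs saline at 3d gave log2 fold changes of 1.31 to 3.30 for Dnmt3a and the TET enzymes, but with all 24 samples none of the 9 genes passed. For all genes tested, 0.0307% passed. An unadjusted p below 0.05 was found for 4 of the 9 genes, Dnmt3a, Tet1, Tet2 and Tet3, against 17.9% of all genes. DESeq2 called 2 of them (Dnmt3a and Tet1), against 2.44% of all genes, and edgeR none, against 0.00614%. Without the 2 libraries the same 4 genes passed in limma, against 13.6% of all genes, and the comparison of MABsallo with saline then had 4 of 9 against 18.1%. Both comparisons use the same saline samples.

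Dnmt3a counted 584, 825, 772 and 263 in MABsallo-VEGF replicates 1 to 4, and replicate 4, the library that stood apart, lay within the saline range. Its log2 fold change against saline was 1.31 ± 0.41 (adjusted p = 0.120), and 1.88 ± 0.43 without the 2 libraries (adjusted p = 0.00488). Tet2 counted 1492, 1409, 2038 and 788, again with replicate 4 the lowest and below the highest saline sample. Its log2 fold change was 1.43 ± 0.45 (adjusted p = 0.121), and 1.92 ± 0.50 without the 2 libraries (adjusted p = 0.0120).

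Tet3 counted 406, 250, 595 and 93.5, for a log2 fold change of 2.17 ± 0.71 (adjusted p = 0.129) and of 3.27 ± 0.71 without the 2 libraries (adjusted p = 0.00361). Tet1 was the exception among these genes, since all 4 samples, at 146, 150, 156 and 120 from 18 to 31 reads each, were above all saline samples. The log2 fold change of Tet1 was 3.30 ± 1.10 (adjusted p = 0.131), and 3.90 ± 1.28 without the 2 libraries (adjusted p = 0.0409). Leaving out saline replicate 6 alone was enough for the 4 genes to pass (adjusted p = 0.0381 for Dnmt3a, 0.0472 for Tet1, 0.0369 for Tet2 and 0.0226 for Tet3), and leaving out MABsallo-VEGF replicate 4 alone was enough for 3 of them (0.0166 for Dnmt3a, 0.0312 for Tet2 and 0.0268 for Tet3, with 0.0774 for Tet1). Without saline replicate 6 alone 1112 of the 16286 genes tested passed, in place of 5 with all samples. Leaving out each sample of these groups in turn gave 0 to 1258 genes of the table.

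Of the other members, Dnmt1 counted 811, 750, 812 and 601 (log2 fold change 0.48 ± 0.28, adjusted p = 0.383), Mbd2 ranged from 1400 to 1915, below all saline samples (-0.34 ± 0.22, adjusted p = 0.444), and Mbd1 from 561 to 706 (adjusted p = 0.791). Dnmt3b had 6 reads over the 4 samples against 1 in saline, a ratio of 9.15 (exact 95% interval 1.11 to 421, adjusted p = 0.473). Uhrf1 ranged from 15.1 to 133 and overlapped with saline (adjusted p = 0.804).

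**Figure D2:**
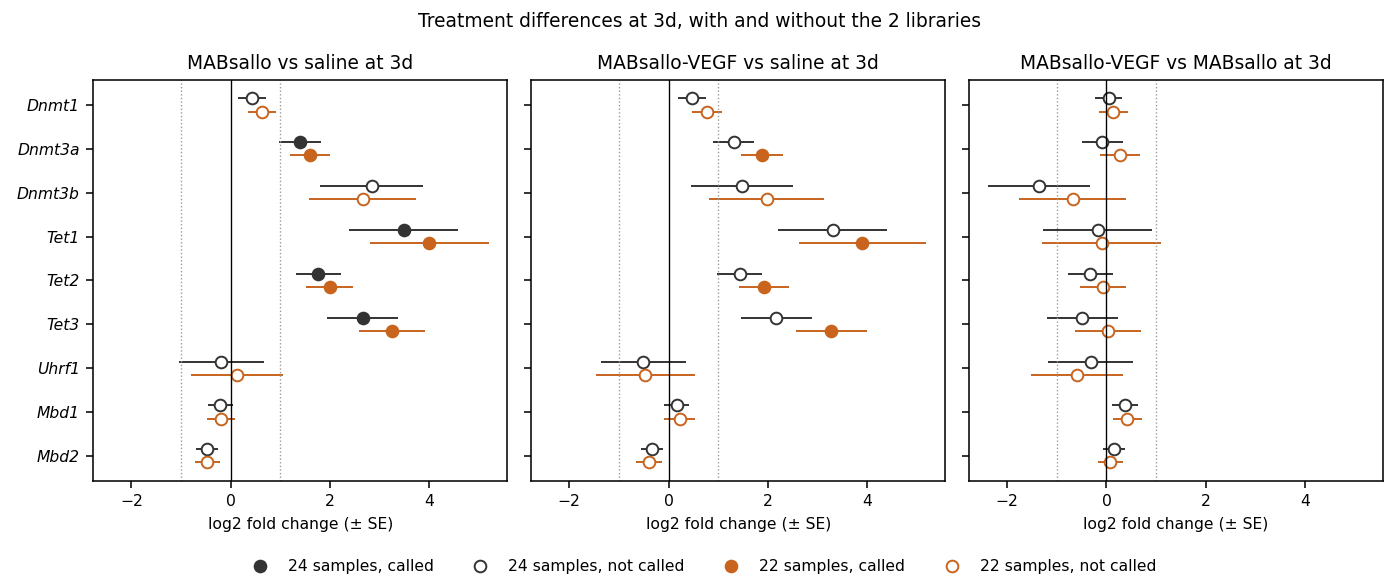
Log2 fold changes with SE (horizontal axes) of the 9 genes for the 3 comparisons at 3d, from all 24 samples (black) and from 22 samples (orange), with filled circles for genes that passed both thresholds and dotted lines at log2 fold changes of -1 and 1. Dnmt3a, Tet1, Tet2 and Tet3 lay at 1.31 to 3.48 against saline in both treatments with 24 samples, and every gene overlapped between the treatments.

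The cells with and without VEGF were then compared directly. At 3d none of the 9 genes passed between MABsallo-VEGF and MABsallo, while 0.00614% of all genes passed. None had an unadjusted p below 0.05 in limma, DESeq2 or edgeR, against 6.13% of all genes in limma. The differences were -0.08 ± 0.41 for Dnmt3a, -0.17 ± 1.10 for Tet1, -0.33 ± 0.45 for Tet2, -0.49 ± 0.71 for Tet3 and 0.04 ± 0.28 for Dnmt1 on the log2 scale. Without MABsallo-VEGF replicate 4, the library of this comparison that stood apart, Dnmt3a turned to 0.28 ± 0.40 and Tet3 to 0.03 ± 0.67, and Tet1 (-0.09 ± 1.20), Tet2 (-0.07 ± 0.47) and Dnmt1 (0.14 ± 0.29) kept their sign. The median of the 9 genes moved from -0.17, with 3 genes above 0, to 0.03, with 5 above 0, and still none passed, against 0.0184% of all genes. The SE for Tet1 leaves room for a difference of more than 1 in either direction. Each of the 9 genes overlapped between these treatments, with and without that library.

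In each treatment Dnmt3a and the TET enzymes had lower group means at 7d than at 3d, and no treatment comparison passed at 7d. MABsallo vs saline, MABsallo-VEGF vs saline and MABsallo-VEGF vs MABsallo each had 0 of the 9 genes, and 0% of all genes, past the thresholds in limma. By unadjusted p, 2 members (Tet2 and Tet3), 2 members (Dnmt3a and Tet2) and 0 members were below 0.05 in this order, against 6.23%, 6.34% and 2.78% of all genes. DESeq2 and edgeR called 0 members in each. Tet2 counted 196, 187, 184 and 119 in saline (replicates 1, 2, 3 and 5), 489, 629, 175 and 726 in MABsallo (replicates 7.2, 9, 11 and 13) and 591, 516, 248 and 394 in MABsallo-VEGF (replicates 6, 7, 11 and 12). The MABsallo-VEGF samples were all above the saline samples, and MABsallo replicate 11 was within the saline range. The log2 fold change of Tet2 was 1.40 ± 0.45 for MABsallo (adjusted p = 0.732) and 1.30 ± 0.45 for MABsallo-VEGF (adjusted p = 0.614), so it was of about the size seen at 3d but did not pass among all genes.

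Tet1 was read in 2 of 4 samples of each 7d group, with 3 reads in all in saline, 4 in MABsallo and 6 in MABsallo-VEGF. Dnmt3b was not read in any of the 12 samples of 7d, and a count of 0 allows up to 3 reads over a group. For Tet1 and Dnmt3b no treatment difference was detectable at this depth. Tet3 stayed at 2.49 to 26.5 from 1 to 8 reads a sample. It had 24 reads in MABsallo and 8 in saline at 7d, a 3.04-fold ratio of the group means between groups that overlapped, and a log2 fold change of 1.48 ± 0.71 that did not pass (adjusted p = 0.801). Dnmt3a spread widely in MABsallo-VEGF at 7d, from 87.1 to 400, where saline ranged from 53.6 to 164 and MABsallo from 107 to 137, and its log2 fold change against saline was 0.92 ± 0.41 (adjusted p = 0.760). The recovered replicates 6 and 7 counted 87.1 and 143, and replicates 11 and 12 counted 267 and 400, which was not tested.

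The change of the treatment effect between the days was tested directly. With all samples 0 of the 9 genes passed for MABsallo and for MABsallo-VEGF in limma, against 0% of all genes. DESeq2 and edgeR also called 0 members, where DESeq2 called 78 genes of the table for MABsallo and 1 for MABsallo-VEGF. An unadjusted p below 0.05 was found in limma for 1 member, Tet1, for MABsallo, against 13.6% of all genes, and for 0 members for MABsallo-VEGF, against 8.23%. The effect of MABsallo at 3d differed from that at 7d by 3.20 ± 1.55 on the log2 scale for Tet1 (adjusted p = 0.368), 1.18 ± 0.59 for Dnmt3a (adjusted p = 0.373), 1.18 ± 1.01 for Tet3 (adjusted p = 0.627) and 0.37 ± 0.64 for Tet2 (adjusted p = 0.836). For MABsallo-VEGF the difference was 2.76 ± 1.55 for Tet1 (adjusted p = 0.659) and 0.39 ± 0.59 for Dnmt3a (adjusted p = 0.899). Without the 2 libraries still 0 members passed for either treatment, while 3.56% and 3.59% of all genes did. Those with an unadjusted p below 0.05 were then Dnmt3a (1.39 ± 0.55, adjusted p = 0.162) and Tet1 (3.72 ± 1.63, adjusted p = 0.214) for MABsallo, and Dnmt1 (0.86 ± 0.41, adjusted p = 0.255) and Tet3 (2.16 ± 0.94, adjusted p = 0.216) for MABsallo-VEGF, against 19.4% and 18.8% of all genes. A treatment effect of 3d that differed from that of 7d was therefore not shown for any of the 9 genes.

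The days after SVD were compared within each treatment. In MABsallo rats 5 of 9 genes were higher at 3d than at 7d past both thresholds, against 23% of all genes, and 4 of them without Dnmt3b, which entered the test through its 3d reads only. In MABsallo-VEGF rats 4 of 9 passed, against 15.3%, and in saline rats 1 of 9, against 3.19%. The median log2 difference (3d minus 7d) of the 9 genes was 1.93, 1.54 and 0.55 in this order, where that of all genes was 0.06, 0.05 and 0.05. These medians include Dnmt3b, and the saline median is the value of Dnmt3b itself, from 1 read at 3d.

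Tet3 passed in all 3 treatments, with log2 differences of 3.27 ± 0.71 in saline (adjusted p = 0.0170), 4.45 ± 0.71 in MABsallo (adjusted p = 0.000159) and 4.33 ± 0.71 in MABsallo-VEGF (adjusted p = 0.000347). Every 3d sample was above every 7d sample of its treatment, and the group means differed 13.2-fold, 22.6-fold and 25.0-fold. The saline call was lost without the 2 libraries (2.69 ± 0.67, adjusted p = 0.0754), without saline replicate 6 of 3d alone (0.0986), and without saline replicate 3 (0.0503) or 5 (0.0608) of 7d.

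Tet1 fell from group means of 162 ± 20.1 (SD) to 3.36 ± 4.41 in MABsallo and from 143 ± 15.9 to 4.97 ± 6.14 in MABsallo-VEGF. The log2 differences were 5.90 ± 1.10 (adjusted p = 0.000457) and 5.46 ± 1.10 (adjusted p = 0.00133), and neither pair of groups overlapped. In saline the difference of Tet1 was 2.70 ± 1.10 (adjusted p = 0.172), and the ratio of summed reads per depth was 12.2 (exact 95% interval 3.82 to 62.6).

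Tet2 was higher at 3d by 1.93 ± 0.45 in MABsallo (adjusted p = 0.00265), 1.70 ± 0.45 in MABsallo-VEGF (adjusted p = 0.0103) and 1.57 ± 0.45 in saline (adjusted p = 0.0517). The saline groups overlapped through replicate 8 of 3d alone, and without that sample Tet2 (2.08, adjusted p = 0.00171) and Tet1 (3.99, adjusted p = 0.00912) also passed in saline. DESeq2 and edgeR each called Tet1, Tet2 and Tet3 in saline with all samples, against 8.51% and 6.07% of all genes.

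Dnmt3a was higher at 3d by 2.34 ± 0.41 in MABsallo (adjusted p = 0.000328), with 503 to 724 at 3d against 107 to 137 at 7d. In MABsallo-VEGF the difference was 1.54 ± 0.41 (adjusted p = 0.0108), and it did not pass without replicate 6 of 7d (1.17, adjusted p = 0.0506). The MABsallo-VEGF groups overlapped, at 263 to 825 for 3d against 87.1 to 400 for 7d. In saline the groups did not overlap, at 189 to 344 against 53.6 to 164, but the difference of 1.15 ± 0.41 did not pass (adjusted p = 0.119). Dnmt3b had 13 reads at 3d in MABsallo against 0 at 7d, at least 10.3-fold against a floor of 3 reads over the group. As it was tested only because of its reads at 3d, this is a description and not a tested difference.

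Dnmt1 and the readers changed less. In MABsallo rats Dnmt1 was higher at 3d by 0.85 ± 0.28 (adjusted p = 0.0244), Mbd1 lower by a log2 difference of -0.86 ± 0.26 (adjusted p = 0.0140) and Mbd2 lower by -0.88 ± 0.22 (adjusted p = 0.00426), each under the fold threshold. All of them passed it without MABsallo replicate 11 of 7d (1.20 for Dnmt1, -1.08 for Mbd1 and -1.01 for Mbd2), Mbd1 also without MABsallo replicate 1 of 3d (-1.09), and Mbd1 and Mbd2 also after scaling to the same total (-1.07 and -1.10). In MABsallo-VEGF rats Dnmt1 was higher at 3d by 0.94 ± 0.28 (adjusted p = 0.0203) with no overlap between the days, and past both thresholds without the 2 libraries (1.04 ± 0.29, adjusted p = 0.0103), where 5 of 9 genes passed against 20.3% of all genes. Without the 2 libraries 0 of the 9 passed in saline, against 0.19%, with 3 (Dnmt3a, Tet2 and Tet3) at an unadjusted p below 0.05, against 13.8% of all genes.

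**Figure D3:**
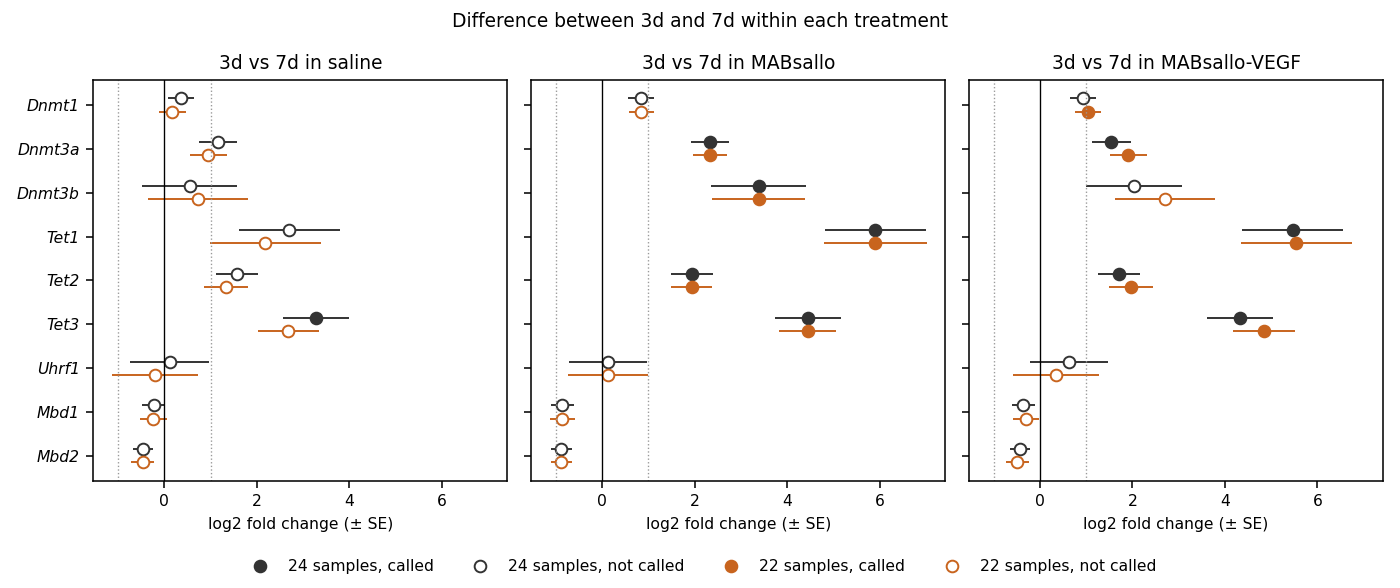
Log2 difference between 3d and 7d with SE (horizontal axes) for the 9 genes in saline, MABsallo and MABsallo-VEGF rats, from 24 samples (black) and 22 samples (orange), with filled circles for genes past both thresholds and dotted lines at -1 and 1. Positive values mean higher at 3d. Tet3 lay at 3.27, 4.45 and 4.33 in the 3 treatments, and Mbd2 below 0 in each.

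In the order of the 6 group means, the 3 groups of 3d came before the 3 groups of 7d for Dnmt1, Tet1, Tet2 and Tet3, and for Dnmt3a and Dnmt3b as well, while the readers ran the other way. Mbd1 was highest in MABsallo at 7d and lowest in MABsallo at 3d, and Mbd2 highest in saline at 7d and lowest in MABsallo at 3d. Neighbours in this order rarely separated. Of 43 neighbouring pairs 3 did not overlap, namely Tet1 in MABsallo-VEGF over saline at 3d, Tet2 in MABsallo-VEGF over saline at 7d and Mbd2 in saline over MABsallo-VEGF at 3d. Two-sided exact permutation tests of 4 against 4 samples cannot go below 0.0286, and the lowest p adjusted over the 43 pairs was 0.410. With that floor the adjusted p could not pass unless most pairs reached it, so these tests cannot show whether neighbours differ.

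Uhrf1 did not follow this order, and its largest value was 337, from 202 reads, in MABsallo replicate 11 at 7d, while the other samples of that group counted 21.7, 26.5 and 41.5. The same library had the highest Dnmt1 count of 7d, 839 against 260, 397 and 290 in its group, and was the deepest of all. Its summed count of 19 proliferation genes was 18201, where the other samples of the group had 4309 to 5134. Uhrf1 was next highest in saline replicate 8 of 3d (188), MABsallo-VEGF replicate 2 of 3d (133) and saline replicate 6 of 3d (131), and these libraries had the next highest proliferation sums, 14291, 13177 and 11776. All other libraries had sums of 3635 to 7836 and Uhrf1 counts of 11.4 to 109. None of the 18 proliferation genes tested passed between MABsallo and saline at 3d (median log2 fold change -0.75). By p, Aurkb, a mitotic kinase (-2.97 ± 1.12, adjusted p = 0.0727), and Mcm6, a helicase subunit (-0.92 ± 0.37, adjusted p = 0.0873), came nearest.

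**Figure D4:**
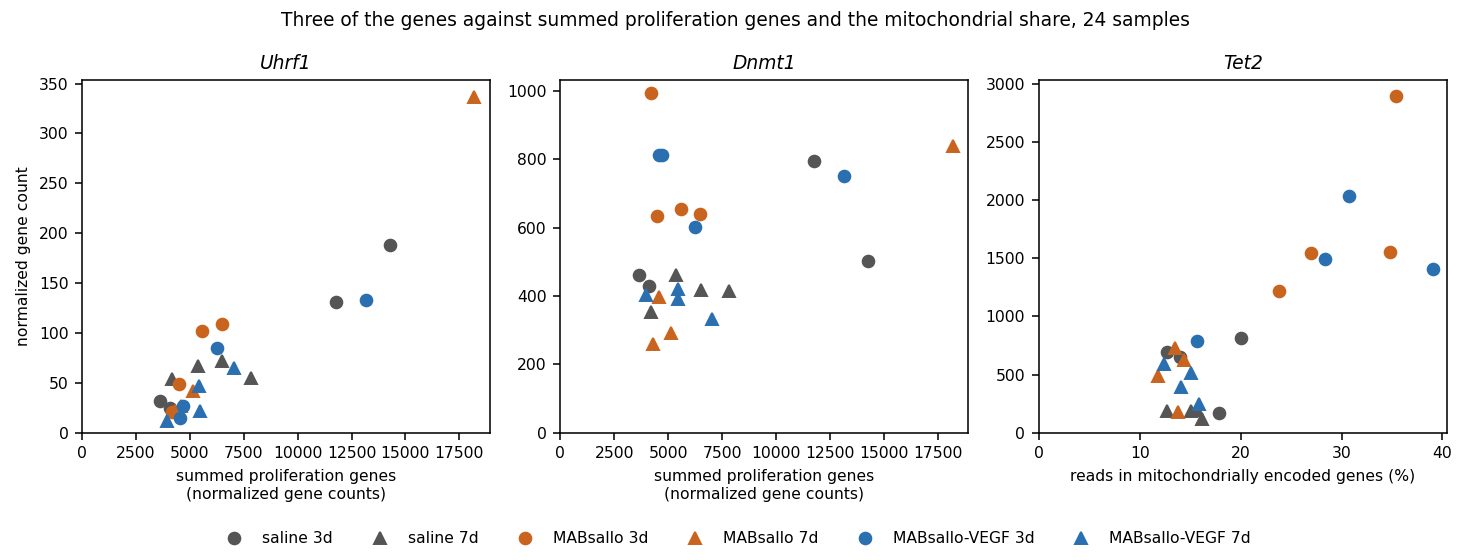
Normalized gene counts of Uhrf1 and Dnmt1 against the summed counts of 19 proliferation genes, and of Tet2 against the percentage of reads in 37 mitochondrially encoded genes, for the 24 samples, with circles for 3d, triangles for 7d and colours for treatment. The 4 libraries with proliferation sums of 11776 or more had the 4 highest Uhrf1 counts, from 131 to 337, while Dnmt1 reached 994 in a library with a sum of 4189. Tet2 was at 1220 or more in the 7 libraries of treated rats at 3d whose mitochondrial share was 23.8% or more.

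The genes with the most similar course over the 24 samples were found by Pearson's r of log2 counts among 11168 genes with a mean of at least 50 (11169 for Dnmt3b). These values describe samples that share treatment, day and depth. For Tet2 they were Setd2, an H3K36 methyltransferase (r = 0.98), and Nktr (r = 0.98), and for Tet3 Kmt2c, an H3K4 methyltransferase (r = 0.97), and Med13, a subunit of the Mediator kinase module (r = 0.97). For Dnmt3a they were Chm (r = 0.93) and Ralgapa2 (r = 0.90), for Tet1 the unnamed genes AC109958.1 (r = 0.94) and AABR07054045.1 (r = 0.93), and for Dnmt3b Zmym4 (r = 0.88) and Pde10a (r = 0.84). Dnmt1 was closest to Snx14 and Cbwd1 (both r = 0.86), Mbd1 to Hnrnpl, a splicing regulator, and Plekhf2 (both r = 0.84), and Mbd2 to Apmap and Cd164 (both r = 0.92). Uhrf1 was closest to the mitotic genes Ckap2 (r = 0.90) and Bub1 (r = 0.88), and Bub1 is one of the 19 proliferation genes.

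Partners of the 9 genes were read in lists that were drawn up with results of these data known. Between MABsallo and saline at 3d, 4 of 17 tested partners of DNA methyltransferases and UHRF1 were higher past both thresholds and 1 was lower, with a median log2 fold change of 0.10 against 0.07 for all genes. The counts of these lists stand against 12.3% of all genes past the thresholds, or 18.1% without the 2 libraries, and 13.6% for MABsallo-VEGF vs saline without them. Usp7, a deubiquitinase that binds DNMT1 and UHRF1, ranged from 168 to 606 in saline and from 1072 to 1825 in MABsallo (log2 fold change 2.35 ± 0.41, adjusted p = 0.0059). Nsd1, an H3K36 methyltransferase, rose by 1.64 ± 0.38 (adjusted p = 0.0103), the heterochromatin protein gene Cbx1 by 1.55 ± 0.43 (adjusted p = 0.0212) and Ehmt1, an H3K9 methyltransferase, by 3.27 ± 0.97 (adjusted p = 0.0276). The gene that fell was Pcna, the replication clamp. Without the 2 libraries 6 were higher and none lower in this comparison, and MABsallo-VEGF vs saline went from 0 to 6 higher and 0 lower.

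Other readers of methylated DNA had 3 of 10 tested genes higher and none lower, with a median of 0.73. They were the zinc finger gene Zbtb38 (log2 fold change 1.47 ± 0.42, adjusted p = 0.0229), Nr2c2 (2.71 ± 0.83, adjusted p = 0.0329) and Mbd3, a NuRD subunit related to MBD2 (1.12 ± 0.37, adjusted p = 0.0422). Without the 2 libraries 4 were higher, and 2 were in MABsallo-VEGF vs saline, where all samples had given 0. Of 12 NuRD partners 1 was higher, Gatad2b (2.10 ± 0.56, adjusted p = 0.0178), with a median of 0.59, and without the 2 libraries 2 were, in both treatments, so this list was near the share of all genes.

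Of 17 demethylation and base repair partners 1 was higher and 2 were lower, with a median of 0.05. Oga, the enzyme that removes O-GlcNAc, rose by 1.66 ± 0.33 (adjusted p = 0.00665), the glycosylase gene Neil1 had a log2 fold change of -1.11 ± 0.33 (adjusted p = 0.0285) and the cytidine deaminase gene Apobec1 one of -1.57 ± 0.52 (adjusted p = 0.0439, and 0.0506 without the 2 libraries). Of 21 genes of 2-oxoglutarate and methyl donor metabolism 1 was higher, the methionine synthase gene Mtr (2.12 ± 0.57, adjusted p = 0.0182), and 1 lower, Ahcy, which clears S-adenosylhomocysteine (-1.14 ± 0.38, adjusted p = 0.0453), with a median of 0.15. Both of these lists were near the 12.3% of all genes. No gene of these 6 lists passed in the other 5 treatment comparisons with all samples.

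Markers of other cells moved in the same comparison as Dnmt3a and the TET enzymes, where 12.3% of all genes passed. Between MABsallo and saline at 3d, 6 of 8 mast cell genes, 6 of 12 macrophage genes, 3 of 7 fibroblast genes and 3 of 9 endothelial genes were lower past both thresholds and none was higher, while 3 of 9 striated muscle genes, 1 of 10 smooth muscle genes and 1 of 11 urothelial and squamous genes were higher and none was lower. One pericyte and mesoangioblast gene of 9, Notch3, was higher and one, Anpep, lower, and no gene passed among 8 B and T cell, 6 erythroid, 8 Schwann cell and 8 adipocyte genes. The summed count of the mast cell genes was 241 to 376 in MABsallo, with 3 of 8 genes at 0 in every sample, 178 to 708 in MABsallo-VEGF and 596 to 2340 in saline. The macrophage sum was 4097 to 24575 in MABsallo, 9922 to 58591 in MABsallo-VEGF and 33511 to 65172 in saline, with no gene at 0 throughout a group. The mitochondrial share moved with the same groups, as did the lower depth of the treated libraries. The part of these cells, of the mitochondrial share and of depth in the differences of the 9 genes was not tested.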

How the data were processed

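Urethral RNA was sequenced as QuantSeq 3ʹ mRNA libraries, 4 in each of 6 groups taken from the labels. Reads were trimmed (fastq-mcf) and aligned by the authors with HISAT2 to the rat build Rnor6.0, reads with several alignments were dropped, and HT-seq Count totals were divided by DESeq2 size factors. The deposited signal is this normalized gene count, and 3ʹ counting gives no measure of isoforms. All values (100%, within 0.001) were whole multiples of the worth of 1 read, so whole reads were recovered. Libraries held 2170695 to 10166052 reads in genes, and for a gene with few reads this depth sets the precision. Intervals and floors cover counting error only. The strand setting of the counting and the origin of replicates from separate rats are not given in the sources used here, so p-values measure the spread between samples.

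Log2(normalized gene count + 1) of genes with a mean of at least 2 was fitted over the 6 groups of 24 samples in limma 3.58.1 (R 4.3.3, trended eBayes, two-sided, Benjamini-Hochberg over all genes). To pass, a gene needed an adjusted p under 0.05 together with a log2 fold change past 1 or -1. Fold changes are on this scale, where the added 1 shrinks those of low genes. A sample at 0 can enlarge them instead. For Tet1 in MABsallo vs saline at 3d the log2 fold change was 3.48, and 2.19 without saline replicate 8, which had no read. DESeq2 1.42.0 and edgeR 4.0.16 (quasi-likelihood, TMM) were run on the recovered reads. Other settings were a filter at a mean of 10 or none, a pseudocount of 5, equal library totals, a fit of the compared groups alone, a replicate block, and leaving out each sample or saline replicate 6 and MABsallo-VEGF replicate 4 of 3d. DESeq2 and edgeR without these libraries, and settings beyond these libraries for the change of effect between days, were added after seeing the data. The fit was tested on simulated data.

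The members, lists and tests were chosen with earlier results of these data known. The text names the 9 members, the 2 genes most like each, and from each of 6 partner lists up to 4 genes called between treatments by adjusted p, or the 2 lowest by p where none was called. A gene of these lists is not reported here and was left out of their counts and medians. Pcna falls outside this rule and was named after its value was seen, as were the marker genes Notch3 and Anpep. Promoter sequences are from RefSeq (GRCr8), which had no entry for Dnmt3b. No protein sequence was used.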

Additional observations from a re-analysis of the deposited data

Results flagged for a closer look

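In 7 of 51 combinations of gene and group, 1 sample lay far from the other 3 of its group by Dixon's test for 4 samples, which chance flags in about 1 of 20 groups, and which was applied to groups whose values were not all equal. Dnmt1 was 994 in MABsallo replicate 1 at 3d, where the others were 635 to 655. Mbd1 was 788 in the same sample, where the others were 397 to 443. Dnmt3a was 344 in saline replicate 6 at 3d, a library that stood apart, where the others were 189 to 204. Dnmt3b was 3.57 in saline replicate 9 at 3d, which is 1 read, where the others were at 0. Tet2 was 119 in saline replicate 5 at 7d, where the others were 184 to 196. Uhrf1 was 337 in MABsallo replicate 11 at 7d, where the others were 21.7 to 41.5. Mbd2 was 4851 in MABsallo replicate 13 at 7d, where the others were 2180 to 2565. No member passed the test of a treatment effect that differed between 3d and 7d.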

How the results depend on the processing

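With all samples 4, 0, 1, 5 and 4 of the 9 genes passed for MABsallo vs saline at 3d, MABsallo-VEGF vs saline at 3d, and 3d vs 7d in saline, MABsallo and MABsallo-VEGF, and leaving out each sample of the groups compared in turn gave 0 to 4, 0 to 4, 0 to 3, 5 to 8 and 3 to 5. The genes of the whole table that passed in these fits were 369 to 2816, 0 to 1258, 22 to 1281, 3117 to 3986 and 1746 to 3217 in the same order. Fitting only the groups compared gave 0 for MABsallo vs saline at 3d (5 genes of the whole table in place of 1997) and 0 for 3d vs 7d in saline. For MABsallo-VEGF vs saline at 3d, a pseudocount of 5 gave 1, DESeq2 2 and leaving out the 2 libraries 4, with 4 by DESeq2 and 3 by edgeR without them, and from 0 to 2288 genes of the whole table passed in place of 5. For 3d vs 7d in saline, a filter at a mean of 10 gave 2, DESeq2 3, edgeR 3 and leaving out the 2 libraries 0, with 3 by DESeq2 without them, and from 0 to 1386 genes of the table passed in place of 520. The other comparisons, and the change of the treatment effect between the days, stayed at 0 members in every setting, leaving out each sample included. The causes were not tested. Of 99 differences (9 genes in 9 comparisons and 2 changes of effect) 25 changed sign in at least one setting, none of them among the 14 that had passed with all samples, and none passed with the changed sign. Of those shown in the report, Dnmt3a in MABsallo-VEGF vs MABsallo at 3d turned to 0.027 by DESeq2, 0.044 by edgeR and 0.28 without the 2 libraries (0.28 by DESeq2 and 0.29 by edgeR then), and Tet3 to 0.029 without them. Mbd1 in MABsallo-VEGF vs saline at 3d turned to -0.075 with equal totals. Uhrf1 turned to 0.13 in MABsallo vs saline at 3d and to -0.20 in 3d vs 7d in saline without the 2 libraries, and in 3d vs 7d in MABsallo to -0.0855 with equal totals, -0.63 by DESeq2 and -0.82 by edgeR (-0.63 and -0.79 without the 2 libraries). The change of the Tet2 effect between the days turned to -0.068 by edgeR for MABsallo, and for MABsallo-VEGF to -0.018 with equal totals, -0.053 by DESeq2 and -0.16 by edgeR. Leaving out each sample in turn gave, for MABsallo-VEGF vs MABsallo at 3d, -0.017 to 0.20 for Dnmt1, -0.27 to 0.28 for Dnmt3a, -0.86 to 0.029 for Tet3 and -0.82 to 0.20 for Uhrf1. For Uhrf1 it gave -0.66 to 0.30 in MABsallo and -1.004 to 0.015 in MABsallo-VEGF vs saline at 3d, -0.38 to 0.59 in 3d vs 7d in saline, and -0.21 to 0.998 in 3d vs 7d in MABsallo, with -0.30 without MABsallo replicate 7.2 of 7d. Depth limits Dnmt3b, Tet1 and, at 7d, Tet3.

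Replicate numbers 1 to 4 were shared by MABsallo and MABsallo-VEGF at 3d only. Same-numbered samples deviated together with correlations of 0.41, 0.30, 0.09 and 0.37, not all above 0.1, and unlike-numbered ones with correlations of -0.36 to 0.42. MABsallo-VEGF replicates 1, 2 and 4 correlated best with the MABsallo sample of their own number. MABsallo-VEGF replicate 3 correlated best with MABsallo replicate 1 (0.42). Whether same-numbered samples share more than a number was not settled, and the main fits treat them as unpaired. With the replicate block, fitted on these groups alone, 0 members and 0 of 16606 genes passed, and the same fit without the block also gave 0 and 0. An unadjusted p below 0.05 in limma was found for 1215 genes with the block and 524 without it. The fit of all 24 samples had given 0 members and 1 gene.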
